A study of Mus musculus with 3 samples.

Results

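The genes of the vascular endothelial growth factor (VEGF) system were examined in cultured mouse cells labelled as endothelial. The cells were kept in normal glucose, or in high glucose with or without the secreted protein DKK2. The 10 genes are 5 ligands (Vegfa, Vegfb, Pgf, Vegfc and Figf, the last also written Vegfd), 3 receptor tyrosine kinases (Flt1, Kdr and Flt4) and 2 neuropilin co-receptors (Nrp1 and Nrp2). They were chosen by name, as the probes annotated to these symbols or to their RefSeq accessions, and are 10 of the 20876 genes that could be named on the arrays. Together they are read by 13 probes, 1 each for 7 genes and 2 each for Vegfa, Kdr and Nrp2.

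By their labels, all cells were primary endothelial cells from the penile corpus cavernosum, a tissue of blood-filled sinuses, of C57BL/6 mice. One array held cells kept in 30 mmol glucose (as labelled) with DKK2, 1 held cells in 30 mmol glucose alone and 1 held cells in 5 mmol glucose, each for 48 h. DKK2, a Dickkopf protein, is secreted and modulates Wnt signalling; the sources used here do not give its dose. The growth medium of every group held 20% serum, heparin and 5 ng/ml VEGF-A protein, so the cells described here were grown with the main ligand of the system added from outside. Each array was hybridised with a pool of RNA from 3 samples, so the differences have no replicate check and are given without p-values.

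VEGF-A is the principal growth factor of blood vessel endothelium. It binds Kdr, the receptor that carries most of its mitogenic and permeability signal, and Flt1, which binds it more tightly, signals weakly and, in its soluble form, acts as a trap. VEGF-B and placental growth factor (Pgf) bind Flt1 alone among the receptors. VEGF-C and VEGF-D are the ligands of Flt4, the receptor of lymphatic endothelium. Neuropilins have no kinase of their own: they hold VEGF ligands at the receptor and also bind class 3 semaphorins, which signal through plexins. Vegfa and Flt1 are known targets of hypoxia-inducible factors (HIF), and in the corpus cavernosum VEGF supports the endothelium that releases nitric oxide during erection.

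The promoters of the 4 genes with the largest differences between DKK2 and high glucose alone, apart from Flt4 with its signal near background, are printed here, each as the 250 bases before the annotated start in the RefSeq annotation of GRCm38.p6. The arrays' headers name an older build (mm9), so these coordinates do not belong to the array files. Capitals mark matches, on either strand, to 6 motifs: the HIF core (ACGTG or GCGTG), the cyclic AMP response element (TGACGTCA), the GC box (GGGCGG), the AP-1 site (TGACTCA or TGAGTCA), the TCF site (CTTTGA) and the TATA box (TATAAA). No match of one motif overlapped a match of another.
Vegfa, chr17:46032378-46032627, minus strand: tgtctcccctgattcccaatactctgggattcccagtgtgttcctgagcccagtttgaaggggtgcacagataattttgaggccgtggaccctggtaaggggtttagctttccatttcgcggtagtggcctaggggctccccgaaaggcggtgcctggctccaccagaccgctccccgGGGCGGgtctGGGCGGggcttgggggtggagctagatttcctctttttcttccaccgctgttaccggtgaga
Vegfc, chr8:54077282-54077531, plus strand: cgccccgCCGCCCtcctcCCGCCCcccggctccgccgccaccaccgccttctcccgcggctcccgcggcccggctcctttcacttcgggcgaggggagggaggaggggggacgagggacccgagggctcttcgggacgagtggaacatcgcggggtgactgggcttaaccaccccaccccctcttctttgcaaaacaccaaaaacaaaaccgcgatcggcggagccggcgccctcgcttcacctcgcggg
Figf, chrX:164373272-164373521, plus strand: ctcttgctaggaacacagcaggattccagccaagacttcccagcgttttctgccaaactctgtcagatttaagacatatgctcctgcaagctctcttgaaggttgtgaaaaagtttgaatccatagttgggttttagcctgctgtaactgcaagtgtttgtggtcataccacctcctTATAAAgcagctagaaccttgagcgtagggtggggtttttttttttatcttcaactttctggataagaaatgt
Flt1, chr5:147726012-147726261, minus strand: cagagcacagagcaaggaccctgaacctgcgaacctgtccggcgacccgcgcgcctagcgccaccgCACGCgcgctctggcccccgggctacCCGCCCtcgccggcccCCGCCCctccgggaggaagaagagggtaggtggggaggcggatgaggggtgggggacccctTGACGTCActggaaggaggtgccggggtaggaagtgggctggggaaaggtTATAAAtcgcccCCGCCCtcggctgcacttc
The Vegfa window held 2 GC boxes, which began 72 and 62 bases before the start. The Vegfc window held 2 GC boxes at 243 and 232 bases before the start. The Figf window was the poorest in G and C of the 4, at 42.4%, and its single match was a TATA box at 73 bases. The Flt1 window was 70.4% G and C and held a TATA box at 31 bases, a cyclic AMP response element at 81, a HIF core at 184 and GC boxes at 158, 142 and 19. Over all 12 windows listed for the 10 genes, a GC box was found in 10, a HIF core in 7, a TATA box in 2, a cyclic AMP response element in 1 (Flt1), a TCF site in 1 (Nrp2) and an AP-1 site in 0. Vegfa and Pgf have 2 windows each. The printed Vegfa window held 0 HIF cores, and those of Vegfa lie in its second window, chr17:46025164-46025413, which is not printed. On the minus strand that second window lies downstream of the start of the printed window rather than before it, and the count of 7 includes it. Among 32851 mouse promoters of the same length, 32.7% held a GC box, 38.6% a HIF core, 12.4% a TATA box, 1.5% the cyclic AMP response element, 13.8% the TCF site and 4.5% an AP-1 site. A match is a string of letters in these windows and was not tested as a binding site.

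The array of normal glucose was dimmer: the 75th percentile of its processed signal was 1201, against 2417 in high glucose with DKK2 and 2383 in high glucose. Each signal was therefore divided by the 75th percentile of its array before differences were taken on the log2 scale. A difference between 2 arrays carried an error of 0.20 from the scanner's error model, or 0.40 at its 95% limit. This error is technical and covers neither cultures nor probes that disagree. In counts, higher and lower mean at least 2-fold. In bulk RNA, fewer cells of a type and less RNA per cell cannot be told apart, and the place of an array on the slide and its condition cannot be told apart.

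The cells' endothelial label was set against its markers. Of 17 endothelial markers, 16 were well above background with DKK2, 17 in high glucose and 15 in normal glucose. Their median signal was low, at 176, 173 and 45.7 in that order, and the endothelial transcription factor gene Erg was above background in high glucose alone. The junction gene Pecam1 was at 435 with DKK2, 369 in high glucose and 135 in normal glucose. For the 11 fibroblast markers the median signal was 48040 with DKK2, 78600 in high glucose and 25800 in normal glucose. That median was above the endothelial one on all 3 arrays, so the values here are not assigned to endothelial cells alone. Of the lymphatic markers, Prox1 and Reln were not above background on any of the 3 arrays, and Lyve1 read 29.3 with DKK2, 26.1 in high glucose and, not above background, 6.4 in normal glucose. Pdpn (podoplanin), which lymphatic endothelium shares with fibroblasts, was bright, at 232427 with DKK2, 101038 in high glucose and 56573 in normal glucose, and was the list's higher gene with DKK2 against high glucose, at 1.18 and 1.37 on its probes. Signals of different probes were not converted to amounts, and cell type shares were not measured.

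**Figure D1:**
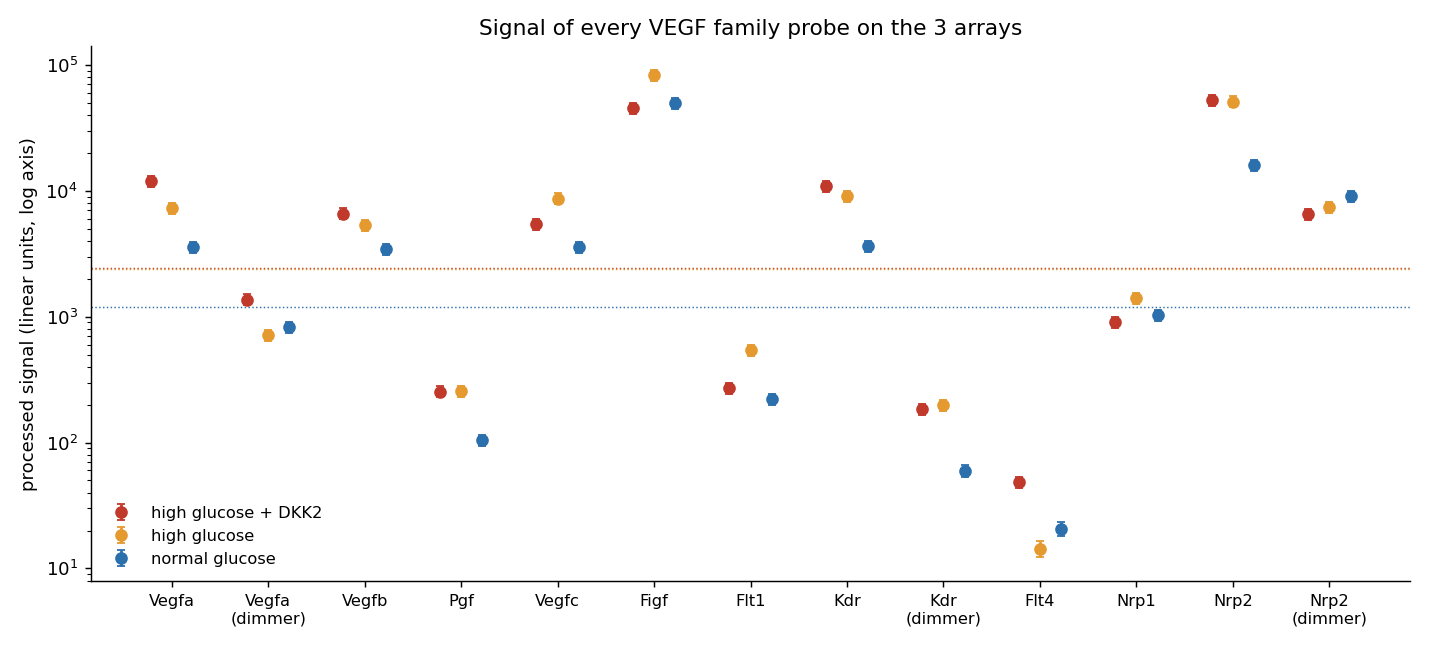
Processed signal of the 13 VEGF family probes (log axis) on the high glucose + DKK2, high glucose and normal glucose arrays, with the scanner's error as bars and the 75th percentile of each array as a dotted line. Figf and the brighter Nrp2 probe lie far above these lines on all 3 arrays, and Flt4 lies lowest, between 14.4 and 48.5.

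Among the ligands, Vegfa was the one whose value was greater with DKK2 than in high glucose by more than the scanner's error. The brighter Vegfa probe (RefSeq NM_001025250) had a signal of 11994 with DKK2, 7300 in high glucose and 3595 in normal glucose. After scaling, DKK2 stood above high glucose by a log2 difference of 0.70, or 1.62-fold, while high and normal glucose differed by 0.03. The second probe, annotated to another Vegfa transcript (NM_001025257), read 1368 with DKK2, 711 in high glucose and 827 in normal glucose. It gave 0.92 between DKK2 and high glucose, so both probes lay on the same side there, and 10.2% of all genes had a difference above that of the brighter probe. In the glucose comparison the probes parted: the second gave -1.21 where the first gave 0.03. That gap of 1.24 compares with a median gap of 0.43 over the 4319 genes with a pair of measured probes. The 2 probes thus give no single direction for Vegfa between high and normal glucose, nor between DKK2 and normal glucose, where they gave 0.73 and -0.28.

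The Flt1 ligands Vegfb and Pgf stayed within the error between neighbouring levels. Vegfb had a signal of 6608 with DKK2, 5369 in high glucose and 3467 in normal glucose, and its scaled differences were 0.28 between DKK2 and high glucose and -0.36 between high and normal glucose. Pgf, which is dimmer, read 254 with DKK2, 255 in high glucose and 104 in normal glucose. Its difference between DKK2 and high glucose was -0.028, with an error of 0.20. Between high and normal glucose Pgf was at 0.31 on the main scale and at -0.43 after normexp, a model-based background correction that pulls dim spots together. Under normexp the median of all genes in that comparison also moved, to -0.26, against 0.085 on the main scale.

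The ligands of Flt4 were both below their high glucose values with DKK2. Vegfc had a signal of 5470 with DKK2, 8690 in high glucose and 3576 in normal glucose. Its difference between DKK2 and high glucose was -0.69, a 1.61-fold lower value, and 9.05% of all genes lay further down. High glucose stood 0.29 above normal glucose, inside the error, and DKK2 stood at -0.40 against normal glucose, just inside it as well.

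Figf was read by a probe spotted 10 times per array. The 10 spots had signals of 42619 to 49520 with DKK2 (median 44285), 75912 to 90911 in high glucose (median 81427) and 46228 to 53834 in normal glucose (median 49410). The spots with DKK2 did not overlap those in high glucose. The unscaled spots with DKK2 and in normal glucose overlapped, but those 2 arrays differ in brightness. After scaling, Figf was at -0.89 between DKK2 and high glucose, at -0.26 between high and normal glucose and at -1.14 between DKK2 and normal glucose, where it was 2.21-fold lower (-0.13 without scaling, no longer a call). The log2 SD between spots was 0.080, 0.073 and 0.063 on the 3 arrays, so every gap was wider than the spot spread. The scanner's error is larger than that spread, and by it normal and high glucose did not differ while DKK2 lay below both. Spots of 1 array share 1 pool of RNA and are not replicates of a condition.

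**Figure D2:**
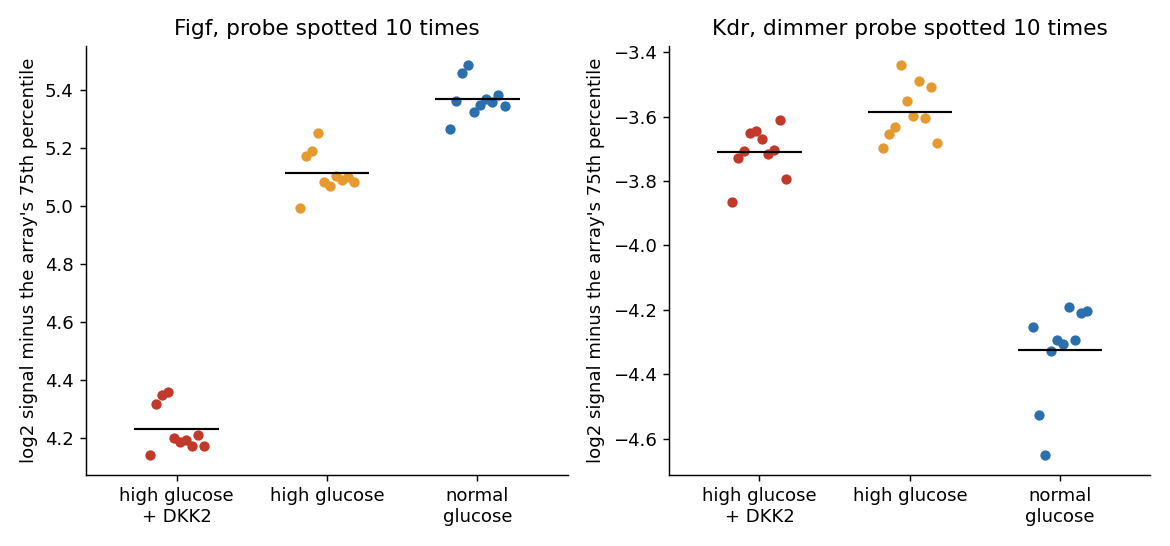
Scaled log2 signal of every spot of the Figf probe and of the dimmer Kdr probe, each spotted 10 times on the high glucose + DKK2, high glucose and normal glucose arrays; the line is the mean of the spots. The Figf spots with DKK2 lie below all others, and the Kdr spots with DKK2 lie in the range of those in high glucose or just below it, with normal glucose apart.

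Kdr, the main receptor of VEGF-A, had no call in any of the 3 comparisons on the scaled values. The brighter Kdr probe had a signal of 10901 with DKK2, 9128 in high glucose and 3648 in normal glucose. Its differences were 0.24 between DKK2 and high glucose and 0.34 between high and normal glucose, both inside the error, and the sum of these steps, 0.57, lay outside it. The dimmer Kdr probe, also spotted 10 times, had median spot signals of 185 with DKK2, 196 in high glucose and 61.3 in normal glucose. It gave -0.12 between DKK2 and high glucose, the other side of 0 from the brighter probe, with a gap of 0.36 that 32.4% of genes with a pair of probes exceeded. It gave 0.74 between high and normal glucose on the main scale and -0.43 with normexp, while the brighter probe gave 0.42 with normexp. Both probes are annotated to the same Kdr transcript although their signals lie far apart. Which of them reads Kdr better was not tested, so the level of Kdr is not settled.

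Flt1 was the one member called lower with DKK2 than in high glucose. Its signal was 273 with DKK2, 546 in high glucose and 222 in normal glucose. The scaled difference between DKK2 and high glucose was -1.02, or 2.03-fold lower, just past the 2-fold line, and 4.66% of genes lay further down. With normexp it was -0.85. High and normal glucose differed by 0.32, inside the error, and DKK2 was at -0.71 against normal glucose. In the 3 levels high and normal glucose were therefore not separated, and DKK2 was the lowest. Without scaling, DKK2 stood 0.30 above normal glucose and high glucose stood 1.30 above it.

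Flt4 was the one member called higher with DKK2 than in high glucose, at a level close to background. Its signal was 48.5 with DKK2, 14.4 in high glucose and 20.7 in normal glucose. The scanner flagged all 3 as well above background, but the 99th percentile of the 153 negative control spots was 3.55 with DKK2, 7.85 in high glucose and 22.65 in normal glucose, the last above the Flt4 value there. The difference was 1.73 (error 0.26) between DKK2 and high glucose and -1.52 (error 0.28) between high and normal glucose. Normexp gave 0.52, under 2-fold, and -1.79. Flt4 is thus called in both comparisons on the main scale, and of these 2 in the glucose comparison alone with normexp. The normexp value there is no check on Flt4, as genes not above background on either array had similar ones. Between high and normal glucose normexp put Egr3 at -1.935 and Cdh1 at -1.853. Between DKK2 and normal glucose Flt4 was at 0.22, inside the error, and at -1.27 with normexp. That normexp value is no check either, as Egr3 was at -1.626 and Cdh1 at -1.671, both not above background in normal glucose.

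On the scaled values, the co-receptor Nrp1 was highest in normal glucose, lower in high glucose and lowest with DKK2. Its signal was 903 with DKK2, 1402 in high glucose and 1023 in normal glucose. After scaling, the difference was -0.66 between DKK2 and high glucose and -0.53 between high and normal glucose, each outside the error. Between DKK2 and normal glucose the difference was -1.19, a 2.28-fold lower value. Normexp gave -1.15, and without scaling it was -0.18, so the call rests on the scaling of the dimmer normal glucose array. The order rests on that scaling too, as high glucose stood 0.45 above normal glucose without it. Nrp1 was the only one of the 10 genes whose read probe put all 3 arrays apart by more than the 95% error.

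Nrp2, which binds VEGF-C and class 3 semaphorins and marks veins and lymphatic vessels, had probes that opposed each other. The brighter probe (NM_001077403) read 52233 with DKK2, 51276 in high glucose and 15937 in normal glucose. The other (NM_001077406) read 6556 with DKK2, 7475 in high glucose and 9050 in normal glucose. In the glucose comparison they gave 0.70 and -1.26, a gap of 1.96 that 2.8% of genes with a pair of probes exceeded. Between DKK2 and high glucose both stayed inside the error, at 0.006 and -0.21. The accessions name different Nrp2 transcripts, and no direction can be given for the gene between high and normal glucose.

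**Figure D3:**
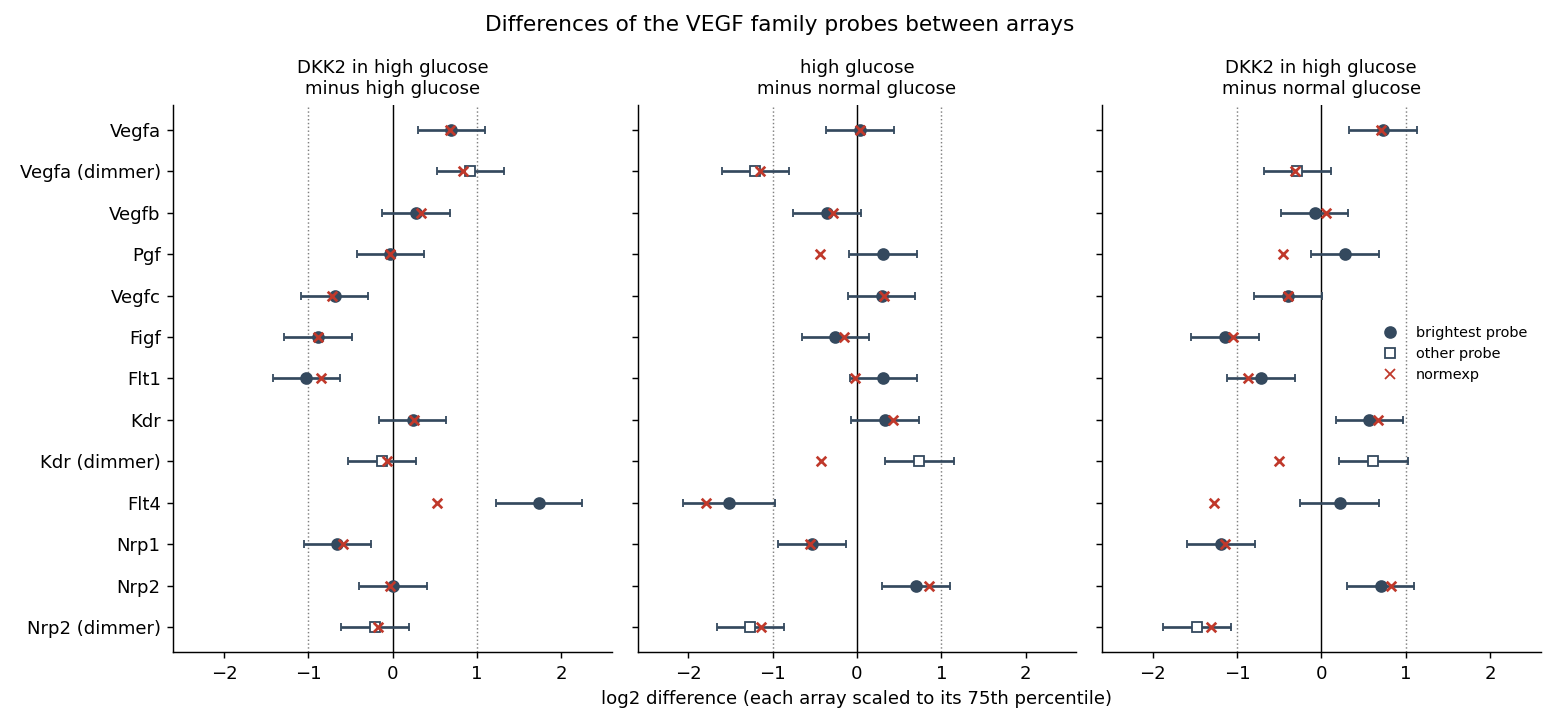
Log2 differences of the 13 probes in the 3 comparisons, with the 95% limits of the scanner's error as bars, filled circles for the probe read for the gene, open squares for the other probe, crosses for normexp and dotted lines at 2-fold. Vegfa lies on the upper side with DKK2 against high glucose on both probes, while the Vegfa and Nrp2 pairs part between high and normal glucose.

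Counted over the 10 genes, 1 was higher with DKK2 than in high glucose (Flt4) and 1 was lower (Flt1). Over the 17825 genes compared, 5.09% were higher and 4.85% were lower, so 1 of 10 on each side is near the background. The median difference of the 10 was -0.011, against 0.081 over all genes. In high against normal glucose 0 members were higher and 1 was lower (Flt4), where 2.66% of 16766 genes were higher and 5.73% lower. The members' median was 0.16, against 0.085 over all genes. These 446 higher and 961 lower genes became 170 and 3942 with normexp, and 9290 and 158 without scaling. Between DKK2 and normal glucose 0 members were higher and 2 were lower (Nrp1 and Figf), where 10.5% of 16676 genes were higher and 10.3% lower, with medians of 0.070 and 0.12. These 1744 higher and 1724 lower genes became 942 and 4004 with normexp, and 9491 and 415 without scaling. This last comparison is the sum of the first 2 and shares their arrays. The members did not all lie on 1 side: with DKK2 in place of high glucose alone, 5 lay above 0 and 5 below it, from -1.02 for Flt1 to 1.73 for Flt4. Of these, Nrp2 (0.006), Pgf (-0.028), Vegfb (0.28) and Kdr (0.24) were inside the scanner's error. Beyond it, Vegfa and Flt4, the latter near background, lay above 0, and Vegfc, Figf, Flt1 and Nrp1 lay below it.

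**Figure D4:**
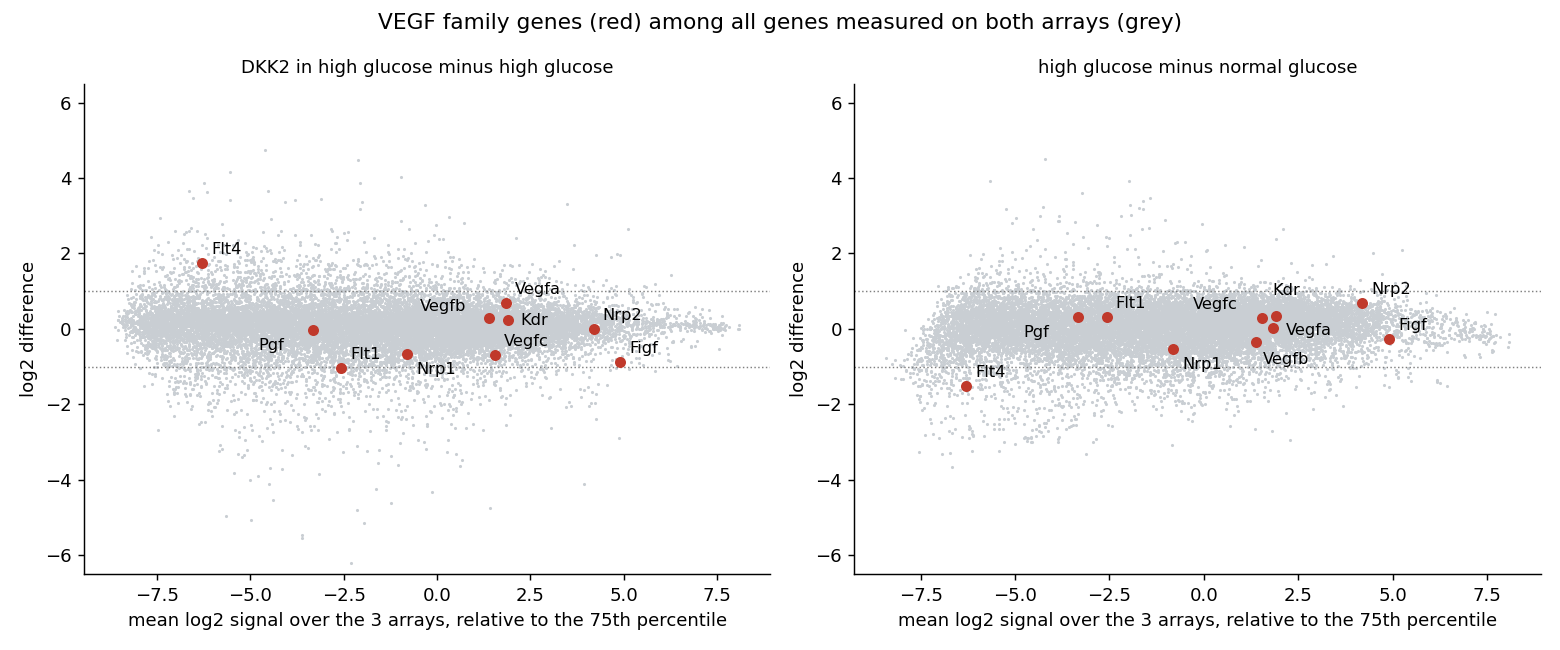
Log2 difference against mean scaled signal for all genes measured on both arrays (grey) and for the 10 VEGF family genes (red), for DKK2 in high glucose minus high glucose and for high glucose minus normal glucose; dotted lines mark 2-fold. Flt4 and Flt1 pass a line in the first panel and Flt4 in the second, and the other members lie inside.

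The genes nearest to a called member in both steps (high minus normal glucose, and DKK2 minus high glucose) were listed by distance over 15683 genes measured on all 3 arrays. The 2 differences share the high glucose array with opposite signs, so 1 low or high reading there moves both. For Figf the nearest were Ptchd1, Sec14l4 and Itpkc, with 30 genes within 0.1 log2 units. For Flt1 they were Abca6, Clec2d and Tceanc2, with 24 genes that close. For Nrp1 they were Hrh3, Tmem220 and Ubtd2, with 32. Flt4 stood in a sparser place: Rbm38 and Slc1a2 were the 2 genes within 0.1, and Cybb, a subunit of the phagocyte oxidase, came next at 0.11.

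The list counts below stand beside the shares over all genes. These were 5.09% higher and 4.85% lower with DKK2 against high glucose, and 2.66% and 5.73% in the glucose comparison. With DKK2 against normal glucose they were 10.5% and 10.3%. The class 3 semaphorins, most of which bind neuropilins, and their plexin receptors were counted over 12 measured genes. With DKK2 against high glucose 3 were lower and 1 was higher, and the median was -0.58. Sema3d, a repulsive guidance ligand, read 138 with DKK2, 520 in high glucose and 438 in normal glucose, a difference of -1.94 between DKK2 and high glucose. Plxna3 read 1057 with DKK2 and 2927 in high glucose, a difference of -1.49. Sema3e, the ligand of Plxnd1 in vessels, was at -1.22, or -0.73 with normexp, and Plxna1 was the higher gene at 1.04; with normexp 0 were higher and 2 lower. Plxnd1 itself read 6089 with DKK2 and 6698 in high glucose, a difference of -0.16. In the glucose comparison 1 of the 12 was higher (Plxna2, 1.22) and 0 were lower. Against normal glucose, DKK2 had 2 higher (Plxna2 and Plxna1) and 4 lower (Sema3d, Plxna4, Plxna3 and Sema3f), beside 10.5% and 10.3% of all genes.

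Of 20 genes for partners and modulators of the VEGF receptors, 2 were lower with DKK2 than in high glucose and 0 higher, and the median was -0.30. Over all genes 4.85% were lower and 5.09% higher there. Robo4, an endothelial guidance receptor, had a signal of 176 with DKK2, 525 in high glucose and 55.2 in normal glucose. Its difference was -1.60 between DKK2 and high glucose and 2.26 between high and normal glucose, the last 0.88 with normexp. Adamts1, a protease that binds VEGF-A, read 15062 with DKK2, 33822 in high glucose and 25474 in normal glucose, and was at -1.19 between DKK2 and high glucose. Cdh5 (VE-cadherin), which associates with Kdr at junctions, was at -0.89. Of the 19 measured in the glucose comparison, 2 were higher (Robo4 and Ptprj) and 2 lower (Gipc1 at -1.39 and Vash1 at -1.16). Vash1, the endothelial feedback inhibitor vasohibin, lay on the same side on its other probes there, at -0.55 and -1.24. Ptprj, a phosphatase that acts on Kdr, was at 1.21 on the read probe (0.47 with normexp) and at 0.07, -0.23 and 0.24 on the others.

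The 34 genes of signal transduction below the receptors held 0 higher and 0 lower genes with DKK2 against high glucose, with a median of 0.12. Over all genes 5.09% were higher and 4.85% lower there. Sphk1, the sphingosine kinase that VEGF activates, came close at 0.94 and 0.93 on its probes, with a signal of 37713 with DKK2, 19453 in high glucose and 4596 in normal glucose. High glucose against normal glucose had 2 higher genes, Nos3 and Sphk1, and 1 lower, Mapk3. Nos3, the endothelial nitric oxide synthase, read 369 with DKK2, 463 in high glucose and 97.4 in normal glucose. Its difference was 1.26 between high and normal glucose on the main scale, 1.04 on its other probe and 0.19 with normexp. Mapk3 was at -1.22 on the read probe and -0.25 on the other, and Sphk1 at 1.09 and 0.18. Against normal glucose, DKK2 had 3 higher genes (Sphk1, Pla2g4a and Hspb1), and Mapk3 was at -1.22.

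Among 19 measured genes that VEGF induces in endothelial cells, 4 were higher with DKK2 than in high glucose and 2 lower, and the median was -0.028. Over all genes 5.09% were higher and 4.85% lower there. The nuclear receptor gene Nr4a2 read 6605 with DKK2, 2120 in high glucose and 982 in normal glucose, a difference of 1.62 from high glucose, with its other probe on the same side. Esm1, the tip cell proteoglycan endocan, read 6166 with DKK2, 2529 in high glucose and 1115 in normal glucose, a difference of 1.26 from high glucose. Ptgs2 (cyclooxygenase 2) read 16400 with DKK2, 6977 in high glucose and 2747 in normal glucose, a difference of 1.21. These genes respond to many signals besides VEGF. The fourth higher gene was the dim leukocyte adhesion gene Sele, and the lower ones were Adamts1 and Vcam1. Rcan1, the calcineurin feedback gene, was at 0.87, and the Notch ligand gene Dll4, near background at 42.0 with DKK2, 70.3 in high glucose and 18.8 in normal glucose, at -0.76. In that list high glucose had 2 genes higher than in normal glucose, Cxcr4 and Angpt2, and 1 lower, the dim Dusp5. Cxcr4 read 8.8 in normal glucose, and its difference of 1.98 became -0.95 with normexp; that setting counted 1 higher and 5 lower. Angpt2 was at 1.44 there and at -0.80 between DKK2 and high glucose. Against normal glucose, DKK2 had 6 higher and 2 lower genes, with Rcan1 at 1.41. With normexp these were 4 and 7, and the dim Sele (1.99) and Cxcr4 (1.75) turned to -0.90 and -1.03.

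With DKK2 against high glucose 5.09% of all genes were higher and 4.85% lower. Of 18 measured regulators of VEGF genes, 1 was higher there and 0 were lower. This was Egln3, a HIF prolyl hydroxylase that is itself a HIF target, with a signal of 481 with DKK2, 185 in high glucose and 63.0 in normal glucose. Its probes gave 1.36 and 1.38. Hif1a, the hypoxia-inducible subunit, read 9364 with DKK2, 5492 in high glucose and 2143 in normal glucose, a difference of 0.75 from high glucose and 1.12 from normal glucose. The glucose comparison had 1 higher gene, the hydroxylase gene Egln1, whose signal was under 100 on all 3 arrays and whose difference of 1.07 became -1.02 with normexp. Against normal glucose 3 were higher with DKK2 (Egln3, Hif1a and Tbx1), and Zfp36, which destabilises VEGF mRNA, was the lower gene at -1.44. With normexp Hif1a alone of those 3 was called higher, as Egln3 was then at 0.69 and the dim Tbx1 turned to -0.79. Of the 9 PDGF family relatives, 0 were higher and 1 was lower with DKK2 than in high glucose: the receptor gene Kit at -1.78, or -0.90 with normexp. High against normal glucose had 0 of these 9 higher and 0 lower (0 and 2 with normexp), and against normal glucose DKK2 had Kit and Pdgfrb (-1.62) lower.

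**Figure D5:**
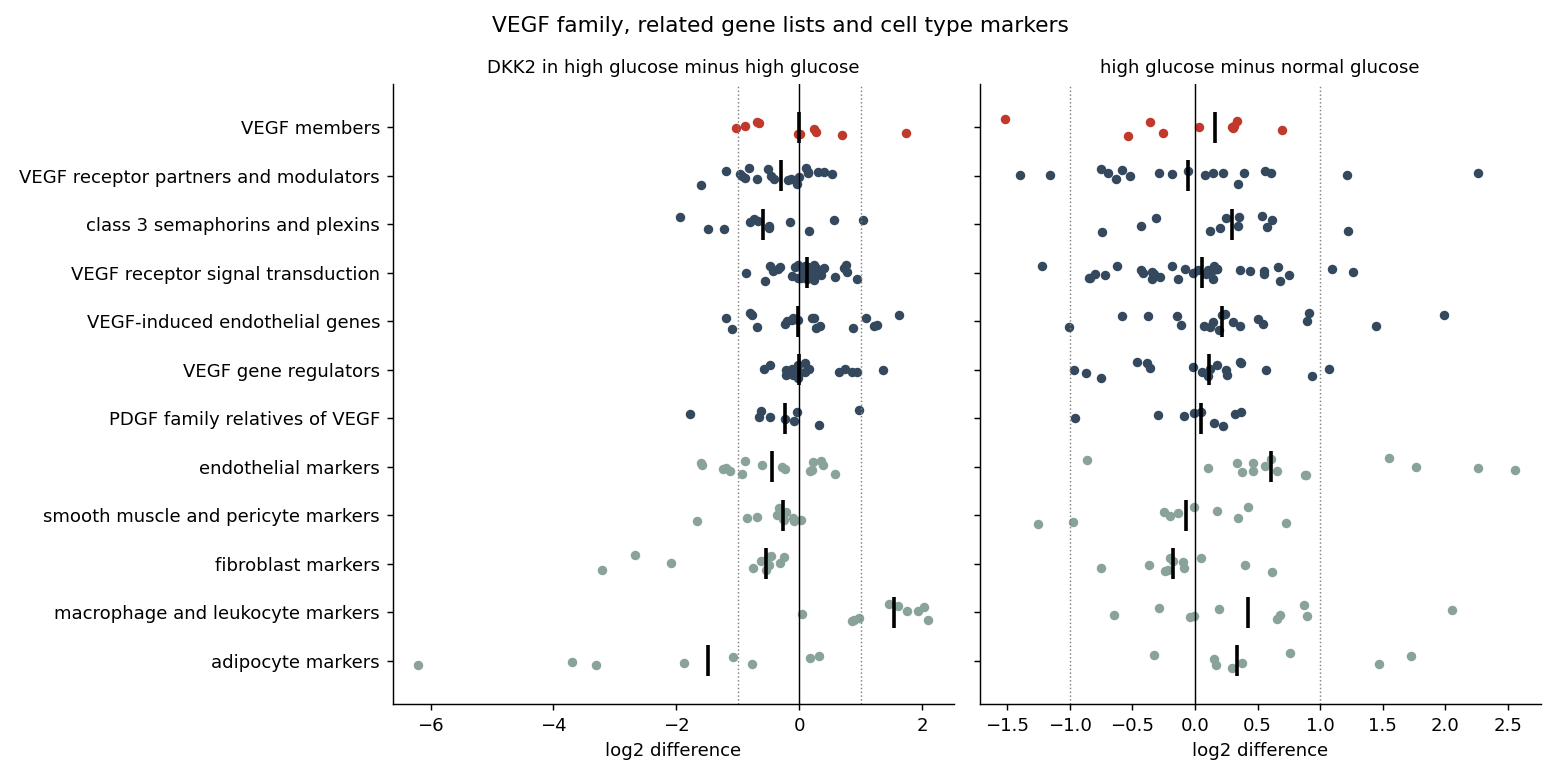
Log2 differences of the genes of each list (points) with the list's median (bar), for DKK2 in high glucose minus high glucose and for high glucose minus normal glucose; the 2 panels have different horizontal scales and dotted lines mark 2-fold. The VEGF family centres near 0 in both, and in the first panel all measured macrophage markers lie above 0 and all fibroblast markers below it.

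Markers of several cell types also differed between the arrays. Over all genes 5.09% were higher and 4.85% lower with DKK2 than in high glucose. With DKK2 against high glucose 0 of 16 measured endothelial markers were higher and 5 lower (Robo4, Sox18, Cldn5, Icam2 and Tek), with a median of -0.45. With normexp Robo4 alone was lower and the median was -0.19. Their summed signal, in units of each array's 75th percentile, was 4.85 with DKK2, 4.82 in high glucose and 3.95 in normal glucose. Egfl7 and Eng were by far the brightest of these markers and weigh most in the sum. Egfl7 read 5713 with DKK2, 4967 in high glucose and 1351 in normal glucose, and Eng read 3150, 2685 and 2456. Of 11 fibroblast markers 0 were higher and 3 lower (Clec3b, Dpt and Pi16), all 11 lay below 0, their median was -0.53 and their sum was 391 with DKK2, 536 in high glucose and 586 in normal glucose. Of the 10 VEGF family members, 5 lay below 0 as well and 5 above it. Of 10 macrophage and leukocyte markers 6 were higher and 0 lower and the median was 1.54, and with normexp 6 were higher as well. Their sum, 24.2 with DKK2, 18.5 in high glucose and 26.9 in normal glucose, was mostly Itgam, whose probes gave 0.04, -1.14 and 0.33 between DKK2 and high glucose. Without Itgam the sum was 8.06 with DKK2, 2.86 in high glucose and 2.44 in normal glucose. Against normal glucose 9 of the 10 lay above 0 with DKK2, with a median of 2.01, or 1.07 with normexp. The macrophage marker Cd163 was not above background on any of the 3 arrays. Of 8 adipocyte markers 0 were higher and 5 lower and the median was -1.48. The smooth muscle markers had a sum of 33.4 with DKK2, 51.9 in high glucose and 76.9 in normal glucose, with 0 of 11 higher and 1 lower (Acta2). Acta2 weighs heavily in these sums, at 15958 with DKK2, 50085 in high glucose and 49587 in normal glucose. Tagln, also bright, was at -0.22 between DKK2 and high glucose. The skeletal muscle markers had 0 of 9 higher and 3 lower, the Schwann cell and glia markers 0 of 6 and 2, and the epithelial markers 1 of 5 and 1. The part of these marker differences in the VEGF family's values was not tested.

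Between high and normal glucose 2.66% of all genes were higher and 5.73% lower. Of 15 measured endothelial markers 4 were higher there (Icam2, Robo4, Mmrn2 and Cldn5) and 0 lower, with a median of 0.61. With normexp 0 were higher and 2 lower, 10 of the 15 lay below 0 and their median was -0.25, beside -0.26 over all genes. The members on that side by more than the error were the brighter Nrp2 probe and the dimmer Kdr probe. Several directions turn with the scaling, since without it every difference between high and normal glucose is 0.99 larger. Nrp1 then stands at 0.45, Figf at 0.73 and Vegfb at 0.63, all turned from below 0 to above it, whereas the values between DKK2 and high glucose move by 0.02.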

How the data were processed

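RNA of cultured mouse cells, labelled as corpus cavernosum endothelial cells, was hybridised in 1 colour (Cy3) to 3 Agilent arrays, 1 per condition. Each array held RNA pooled from 3 samples per the labels. Sample titles gave the groups. Per the file headers, Feature Extraction 11.5.1.1 produced the deposited processed signal intensity per spot, linear and corrected for background, with spot flags. The authors' deposited value table holds the same intensity averaged per probe and served as an alternative.

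The 1377 control spots of the 44397 on each array and outlier spots (136 with DKK2, 115 in high glucose, 110 in normal glucose) were left out, and 0 spots were saturated. Log2 signals were averaged over the spots of a probe and the 75th percentile of the array was subtracted. A probe was above background when 50% or more of its spots carried that flag. Of 39407 probes, 27496 were named through a RefSeq gene table of another assembly, used for names only. A gene was read on its brightest probe above background on at least 1 array, and compared where that probe was above background on both arrays. Counts use a 2-fold rule, and no p-value is given with 1 array per condition; the number of arrays limits the precision. Counting was tested on simulated data.

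The 10 genes, the 6 pathway lists and 9 marker lists were chosen with earlier results of these data known. Named genes are all 10 members, up to 3 genes per pathway list and comparison, the largest differences of at least 2-fold that kept their side with normexp, and 7 genes of interest (Cdh5, Plxnd1, Nos3, Rcan1, Esm1, Dll4 and Hif1a); other genes in counts of 6 or fewer, and markers with their values, were named after those values were seen. Alternatives were normexp (offset 50, on the median spot and background signals, as the mean signal was not used here), quantile, cyclic loess, median or no scaling, no filter on dim probes, a signal minimum of 100, the second brightest probe, the probe mean, the deposited table, and 1.5-fold and 3-fold rules. Counts per list with normexp, and the macrophage sum without its brightest gene, were added after seeing the data. Promoters were read from RefSeq sequences of GRCm38.p6, matched by symbol for all 10 genes. The software was limma 3.58.1 under R 4.3.3, and numpy 2.4.6 and pandas 2.3.3 under Python 3.11.15.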

Additional observations from a re-analysis of the deposited data

How the results depend on the processing

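Between DKK2 and high glucose, the differences of Vegfa (0.59 to 0.92), Vegfc (-0.75 to -0.67), Figf (-1.01 to -0.86), Flt1 (-1.06 to -0.85), Flt4 (0.52 to 1.75) and Nrp1 (-0.70 to -0.59) kept their sign in every alternative that gave a value. So did Vegfb (0.22 to 0.34) and Pgf (-0.084 to -0.008), which lay inside the scanner's error. Kdr kept its sign in 9 of 10 alternatives and Nrp2 in 4 of 10. All alternatives reuse the same arrays, so a kept sign is no replicate check. Between high and normal glucose Vegfa ran from -1.21 to 1.02 and Nrp2 from -1.26 to 1.69, and no sign is given for them. Over the 10 members and 3 comparisons, leaving out scaling moved 20 of 30 values beyond the scanner's error, and normexp and the mean over probes moved 4 each. The second brightest probe moved 5 of 9. No paired analysis was possible because each condition has 1 array, and for the same reason no array could be left out.

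Counts at 2-fold changed as follows. Between DKK2 and high glucose, 0 members were higher with normexp, with the signal minimum and with the second brightest probe, and 2 at 1.5-fold. Of members lower there, 2 were counted with quantile normalization and with cyclic loess, 4 at 1.5-fold, and 0 with normexp, with the second probe and at 3-fold. Between high and normal glucose, 6 members were higher without scaling and 1 at 1.5-fold. Members lower there numbered 2 with the second probe, and 0 without scaling, with the signal minimum and at 3-fold. Between DKK2 and normal glucose, 5 members were higher without scaling and 2 at 1.5-fold. Members lower there numbered 3 with normexp, 1 with the second probe, and 0 without scaling and at 3-fold, and at 1.5-fold Flt1 (-0.71) joined.

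Over all genes, those higher with DKK2 than in high glucose (908) numbered 508 with normexp, 395 with the signal minimum, 209 with the second probe, 2339 at 1.5-fold and 286 at 3-fold. Those lower (864) numbered 476, 491, 193, 2005 and 320 in the same order, and 1349 with no filter. Genes higher in high than in normal glucose (446) numbered 170 with normexp, 218 with the signal minimum, 158 with the second probe, 2328 at 1.5-fold, 104 at 3-fold, 9290 without scaling and 1099 with no filter. Those lower (961) numbered 3942, 583, 327, 2286, 324, 158 and 2129 in the same order. Genes higher with DKK2 than in normal glucose (1744) numbered 942, 1059, 434, 4031, 576, 9491 and 2674 in that order. Those lower (1724) numbered 4004 with normexp, 1136 with the signal minimum, 511 with the second probe, 3202 at 1.5-fold, 747 at 3-fold and 415 without scaling. The filter and second probe counts cover other numbers of genes; for the rest the cause was not tested. Low signal over background limits the values of Flt4, Pgf, Dll4 and the dimmer Kdr probe.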
